A study of Ovis aries with 3 samples.

Results

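IL17F encodes interleukin-17F, a secreted cytokine, and it was chosen here for its pattern across the 3 libraries of the study: many unique molecular identifiers (UMIs, each marking 1 captured RNA molecule) in the lymphocytes of the milk-only library and a few in other cells. It is 1 gene of the 26247 listed, with the identifier ENSOARG00000014066, and its levels are set beside those of CD2 (ENSOARG00000020249), an adhesion receptor of lymphocytes, and IL7R (ENSOARG00000011239), the receptor subunit for interleukin-7. The libraries came from the rumen epithelium of Hu sheep lambs aged 42 days. Their diets were milk with alfalfa hay, milk with a concentrate starter, or milk only, with 1 library for each diet. Because the gene was chosen from these values, they are a description, and no test was made. With 1 library per diet no difference had a replicate check, and diet cannot be told apart from the animal or the library preparation. Intervals in parentheses are at 95% and cover counting error only: exact Clopper-Pearson for shares, exact Poisson for levels and exact conditional binomial for ratios.

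Interleukin-17F is made by type 17 lymphocytes, a group that includes helper T cells, gamma delta T cells and innate lymphocytes. It is secreted as a pair of identical chains or paired with interleukin-17A, and binds a receptor of IL17RA and IL17RC chains on epithelial and stromal cells. In human and mouse epithelia the signal raises antimicrobial proteins and chemokines that attract neutrophils. In the RefSeq gene table of the sheep assembly ARS-UI_Ramb_v3.0, IL17F lies between IL17A and MCM3, a replication protein gene.

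The hay, concentrate and milk-only libraries held 9543, 9214 and 7032 barcodes with 56861548, 60220174 and 63057979 UMIs. After filtering, 7031, 4891 and 3850 cells remained. Cells were clustered with IL17F, IL17A, PTPRC, CD2 and IL7R held out, so none of these genes placed a cell in a cluster. One cluster of 384 cells was lymphocyte-like, with CD3G, a chain of the T-cell receptor complex, and CD96, a lymphocyte surface receptor, among its leading genes. It held 8 hay cells, 44 concentrate cells and 332 milk-only cells. The hay cells fitted their name least well: 11 of the 23 lymphocyte markers with a symbol were detected in them, against 18 in the concentrate cells and 23 in the milk-only cells. Their keratinocyte markers summed to 7465 UMIs per 1e+06 UMIs of the class (CPM), close to the 7946 CPM of hay keratinocytes. The same sum was 2641 CPM in concentrate lymphocytes and 2231 CPM in milk-only lymphocytes. Between libraries, 60 barcodes were shared by a pair and 0 by all 3, and no shared barcode had IL17F in both of its libraries.

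In lymphocytes, IL17F stood at 627 CPM (397 to 940) in the hay library, 1040.2 CPM (868 to 1237) in the concentrate library and 2854 CPM (2781 to 2928) in the milk-only library. These levels rest on 23, 128 and 5860 UMIs. The order was therefore hay, concentrate, milk only from low to high, and the intervals of hay and concentrate overlapped while that of milk only lay above both. The level with hay was 4.55-fold lower than with milk only (3.03 to 7.19), a log2 ratio of -2.19. The level with concentrate was 2.74-fold lower than with milk only (2.30 to 3.30), a log2 ratio of -1.46. Concentrate over hay gave a ratio of 1.66 (1.06 to 2.71). PTPRC, the pan-leukocyte phosphatase CD45, was found in 3 of 8 hay lymphocytes (37.5%), 86.4% of concentrate lymphocytes and 94.3% of milk-only lymphocytes, and its own level was 3.48-fold lower with hay than with milk only. The part of this, and of the keratinocyte markers in the hay cells, in the hay value of IL17F was not tested.

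These ratios depended on few cells in the hay and concentrate libraries. When only cells with at least 1000 genes were clustered, 4 hay, 8 concentrate and 204 milk-only lymphocytes were left with 4, 7 and 4879 IL17F UMIs. The log2 ratios to milk only were then -4.14 for hay and -4.31 for concentrate, and concentrate over hay turned to -0.17 (-2.15 to 2.05). Without the lymphocyte richest in IL17F in each library, the log2 ratio of hay to milk only was -2.98.

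**Figure D1:**
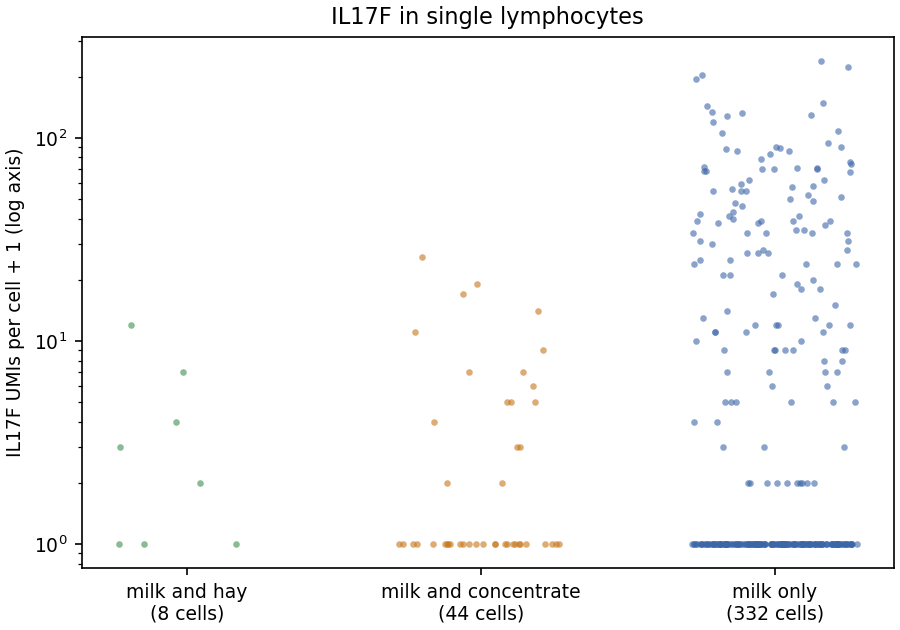
IL17F UMIs in each lymphocyte (1 added, log axis) of the hay, concentrate and milk-only libraries, with points spread sideways at random. The highest cells held 11, 25 and 238 UMIs, and in each library some cells lie on the lowest line, which is 0 UMIs.

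At least 1 IL17F UMI was found in 5 of 8 hay lymphocytes (62.5%, 24.5 to 91.5), 17 of 44 concentrate lymphocytes (38.6%, 24.4 to 54.5) and 140 of 332 milk-only lymphocytes (42.2%, 36.8 to 47.7). The 3 intervals overlapped, so no difference in share was detectable at these cell numbers. The median depths of these cells were 4952.5, 2159 and 4939 UMIs. After each lymphocyte was thinned to 1000 UMIs the shares were 25%, 34.1% and 36.1%, and no cell was too shallow to be thinned. With the gate on PTPRC, CD2 and IL7R described below, the share was highest with milk only. In positive cells the median count was 3 UMIs with hay, 5 with concentrate and 28 with milk only. These cells had median depths of 4885, 2263 and 5166 UMIs, and their median level was 454, 2295 and 4650 CPM. Summed over positive cells the level was 1031 CPM with hay (654 to 1548), 2845 CPM with concentrate (2373 to 3383) and 6322 CPM with milk only (6161 to 6486).

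Among the milk-only lymphocytes 192 had 0 IL17F UMIs, 10 had 1, 28 had 2 to 9, 58 had 10 to 49 and 44 had 50 or more. The 34 richest cells held 61.5% of its IL17F UMIs. In the concentrate library the 5 richest cells held 64.1%, and in the hay library a single cell held 47.8%. Positive and negative milk-only lymphocytes had median depths of 5166 and 4566.5 UMIs, so a cell without IL17F was only slightly shallower than one with it.

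Over all cells kept, IL17F stood at 0.818 CPM with hay, 2.86 CPM with concentrate and 119 CPM with milk only. These levels were 145-fold lower with hay (105 to 206) and 41.6-fold lower with concentrate (34.9 to 49.9) than with milk only. Most of that gap lay in the number of lymphocytes captured, which were 0.114% of hay cells, 0.900% of concentrate cells and 8.62% of milk-only cells. The share of lymphocytes was thus 75.8 times higher in milk only than in hay, and 9.59 times higher than in concentrate. By UMIs the lymphocyte part of the library was 49.9 and 14.9 times higher in milk only, beside a level within lymphocytes 4.55 and 2.74 times higher. Lymphocytes with IL17F numbered 0.711 per 1000 kept cells with hay, 3.48 with concentrate and 36.4 with milk only. Lymphocytes held 62.2% of the hay library's IL17F UMIs, 99.2% of the concentrate library's and 97.2% of the milk-only library's.

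CD2 and IL7R did not follow the order of IL17F in lymphocytes. CD2 stood at 109 CPM with hay, 309 CPM with concentrate and 254 CPM with milk only, and its ratio of concentrate to milk only was 1.21 (0.850 to 1.69). IL7R stood at 300 CPM, 585 CPM and 548 CPM in the same order, with a ratio of concentrate to milk only of 1.07 (0.829 to 1.36). PTPRC stood at 218 CPM with hay, 723 CPM with concentrate and 759 CPM with milk only. For all 3 the interval of concentrate over milk only included 1, whereas that of IL17F did not (0.303 to 0.434). Hay was the lowest library for each of the 4 genes, on 4 UMIs of CD2, 11 of IL7R and 8 of PTPRC.

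Within the milk-only library, lymphocytes with IL17F and those without had like levels of CD2, at 252 and 256 CPM, and of PTPRC, at 764 and 756 CPM. IL7R was at 668 CPM (616 to 723) in cells with IL17F and 449 CPM (411 to 490) in cells without. In the concentrate library CD2 was at 88.9 CPM (24.2 to 228) in the 17 cells with IL17F and 436 CPM (302 to 609) in the 27 without, and the intervals of IL7R overlapped. The hay library had 4 CD2 UMIs in lymphocytes, too few to compare.

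CD2 and IL7R were not confined to lymphocytes. In the cluster of macrophage- or dendritic-like cells, led by the complement gene C1QC and the cytokine gene IL1B, CD2 stood at 257 CPM in the hay library, 208 CPM in the concentrate library and 351 CPM in the milk-only library. IL7R stood there at 106, 119 and 428 CPM. IL17F had 0 UMIs in the 31 hay cells and in the 50 concentrate cells of this class, where the limits of 3 UMIs are 22.7 and 15.6 CPM. It had 85 UMIs in the 112 milk-only cells, a level of 50.8 CPM, but 79 of them lay in 1 cell. That cell also held 7 UMIs of C1QA and 217 of the keratin KRT15, 59 UMIs from the macrophage or dendritic marker list and 3 from the lymphocyte list, all 3 of them PTPRC. The other 6 positive cells held 1 UMI each.

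A gate on the RNA of PTPRC, CD2 and IL7R therefore did not select lymphocytes alone. Cells with UMIs of at least 2 of these 3 genes numbered 22 with hay, 58 with concentrate and 364 with milk only. Of these, 18, 25 and 93 were macrophage- or dendritic-like cells, and 4, 33 and 264 were of the lymphocyte cluster. IL17F was found in 13.6% of the gated hay cells, 19.0% of the gated concentrate cells and 35.7% of the gated milk-only cells. The log2 ratios to milk only within the gate were -3.50 for hay and -1.92 for concentrate.

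**Figure D2:**
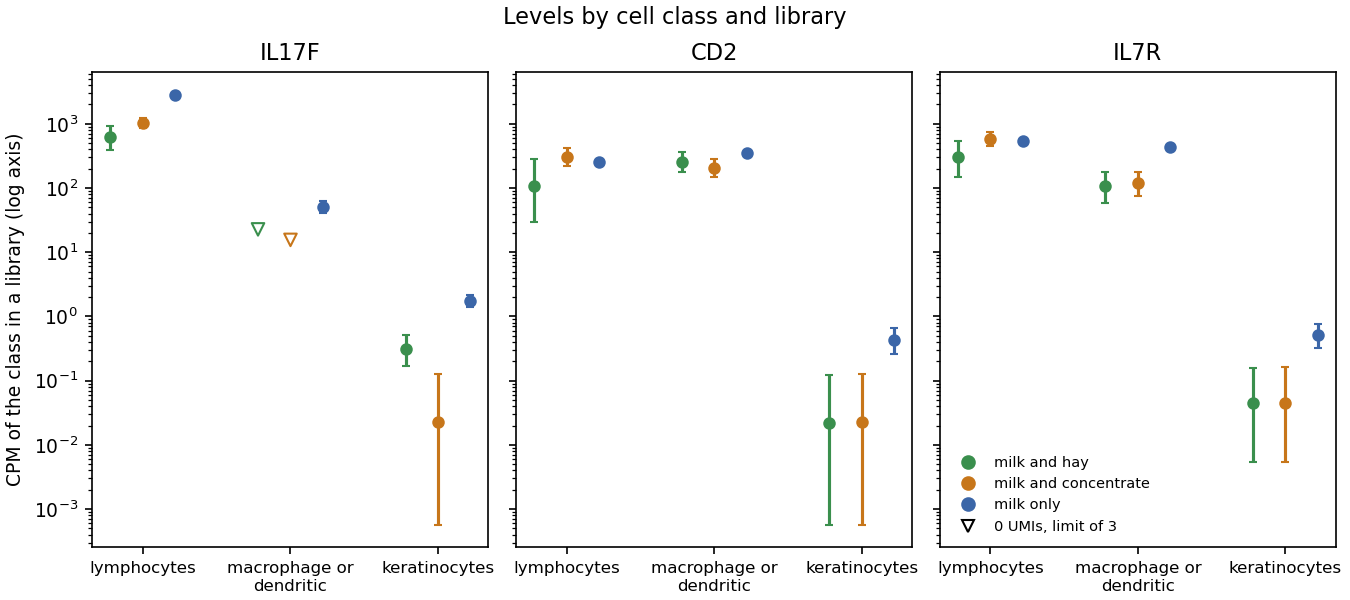
Level of IL17F, CD2 and IL7R in CPM (log axis) in 3 cell classes of the hay, concentrate and milk-only libraries, with 95% counting intervals; open triangles mark the limit of 3 UMIs where 0 were counted. IL17F in the milk-only library is at 2854 CPM in lymphocytes, and at 50.8 and 1.75 CPM in the other classes, while CD2 and IL7R stay above 100 CPM in macrophage- or dendritic-like cells.

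Outside immune cells IL17F was scarce. Keratinocytes held 14 IL17F UMIs in the hay library, 1 in the concentrate library and 82 in the milk-only library, which gave 0.311 CPM (0.170 to 0.521), 0.0225 CPM (0.000570 to 0.125) and 1.75 CPM. The positive keratinocytes were 5 of 6991 with hay (0.0715%), 1 of 4674 with concentrate (0.0214%) and 54 of 3403 with milk only (1.59%). Their classes had median depths of 5895, 8283 and 11635 UMIs, at or above those of the lymphocytes, so the lymphocyte shares were far above this background in cells that were no deeper. The endothelial- and fibroblast-like cells had 0 IL17F UMIs.

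In keratinocytes the milk-only level was the highest, and the order of hay and concentrate turned on 1 hay cell, which held 10 of the 14 UMIs together with 6 UMIs of IL17A and 0 of the lymphocyte list. Without it the log2 ratio of concentrate to hay was -1.98 (-7.60 to 1.36), so their order was not resolved. The hay level in keratinocytes was 5.62-fold lower than the milk-only level (3.17 to 10.7), a log2 ratio of -2.49. That ratio was -3.72 without keratinocytes of 10 or more IL17F UMIs and -0.89 with a mitochondrial maximum of 10%, where the interval included 0 (-1.99 to 0.11). The concentrate level was 77.6-fold lower than the milk-only level, with a wide interval (13.5 to 3101) set by its single UMI.

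Most milk-only keratinocytes with IL17F held a single molecule of it. Of the 54 positive cells, 51 had 1 UMI, 2 had 2 and 1 had 27. The cell with 27 UMIs held 28471 UMIs in all, 6 of them from 5 genes of the lymphocyte marker list and 179 from the keratinocyte list. The share of positive cells over 4 equal groups of cells, from shallow to deep, was 0.470%, 1.53%, 1.76% and 2.59%. The level over the same groups was 1.42, 1.63, 1.29 and 2.06 CPM, and 0.924 CPM in the deepest group without the cell of 27 UMIs. The share thus followed depth while the level did not.

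Without the cell of 27 UMIs, the clusters with 171 or more milk-only keratinocytes had like IL17F levels, between 0.845 CPM and 1.71 CPM with overlapping intervals. The highest of these was the differentiated keratinocyte-like cluster, at 1.71 CPM (0.959 to 2.83), and the lowest was at 0.845 CPM (0.436 to 1.48). Positive keratinocytes rarely held RNA of the other lymphocyte genes. Of the 54 cells, 1 had CD2, 0 had IL7R and 3 had any of PTPRC, CD2 and IL7R (5.56%, 1.16 to 15.4). Among the 3349 keratinocytes without IL17F, 36 had any of them (1.07%, 0.754 to 1.49), and the median depths were 14786 and 11576 UMIs. Free RNA in the droplet suspension, which gives single UMIs to cells that do not express a gene, was not tested as a part of these counts.

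The spread of IL17F was then set beside that of the other lymphocyte genes, since RNA from 1 source keeps the counts of its genes in 1 ratio in every cell type. In the milk-only library the keratinocyte level was 0.0612% of the lymphocyte level for IL17F (0.0486 to 0.0761), 0.168% for CD2 (0.101 to 0.261) and 0.0933% for IL7R (0.0595 to 0.139). Relative to CD2 the log2 ratio of the spread was -1.45 (-2.19 to -0.66), and relative to IL7R it was -0.61 (-1.29 to 0.12). IL17F thus lay lower than CD2 beyond counting error, and no difference from IL7R was detectable with all cells counted. The comparison with IL7R rested on 1 keratinocyte, which held 27 of the 82 IL17F UMIs. Without it 55 were left, and IL17F lay further below IL7R, so whether these 2 genes differ is not settled.

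Counting macrophage- or dendritic-like cells as a source as well narrowed the gap to CD2 to within counting error when all cells were counted. Per 100 UMIs in both immune classes, keratinocytes held 1.38 UMIs of IL17F (1.10 to 1.71), 1.80 of CD2 (1.10 to 2.80) and 1.30 of IL7R (0.834 to 1.95), and the log2 ratio to CD2 became -0.39 (-1.11 to 0.40). Over 10 lymphocyte genes with at least 100 such UMIs the value ran between 0.671 for CD3G and 6.91 for LTB, lymphotoxin beta, with a median of 1.84. Of these genes, 7 had a higher value than IL17F. Without the richest keratinocyte for each gene, the value was 0.925 for IL17F, 1.62 for CD2 and 1.03 for IL7R. For IL17F, 1 keratinocyte held 27 of the 82 UMIs, and 1 macrophage- or dendritic-like cell held 79 of the 85. The closing of the gap to CD2 thus depended on single cells. In the hay library the keratinocytes had 1 CD2 and 2 IL7R UMIs, and in the concentrate library likewise 1 and 2, so the spread could not be compared there: the log2 ratio to CD2 was 1.28 with hay and -1.75 (-8.06 to 4.58) with concentrate.

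**Figure D3:**
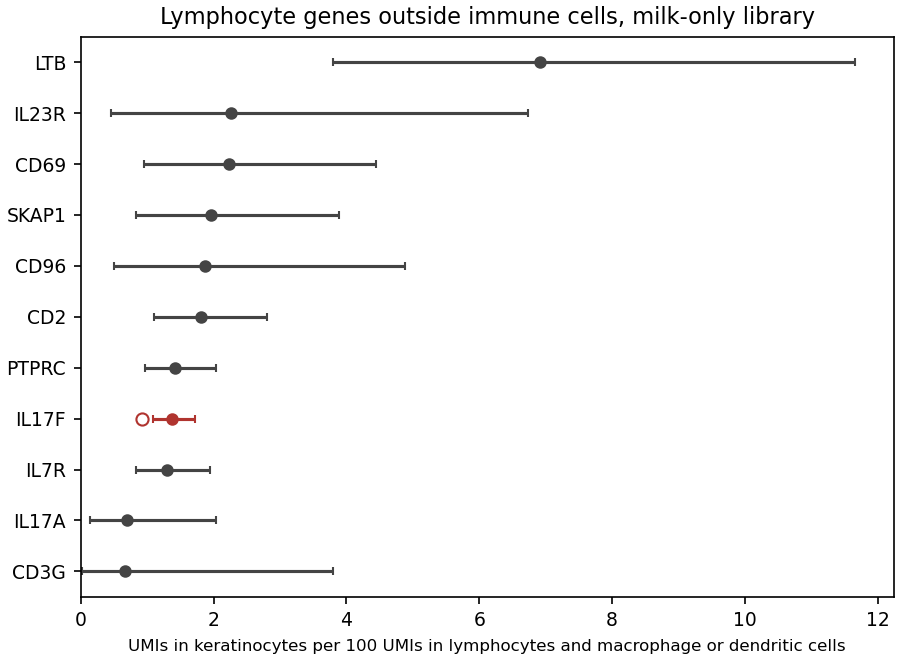
UMIs in keratinocytes per 100 UMIs in lymphocytes and macrophage- or dendritic-like cells of the milk-only library, for IL17F (red) and 10 lymphocyte genes with at least 100 UMIs in those cells; lines are 95% counting intervals and the open circle leaves out the keratinocyte with 27 IL17F UMIs. IL17F, at 1.38, sits within the range of 0.671 to 6.91 of the other genes.

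IL17A (ENSOARG00000013930), the neighbour and pairing partner of IL17F, did not share its order across libraries. Lymphocytes held 1 IL17A UMI with hay, 91 with concentrate and 434 with milk only, or 27.2, 739.5 and 211 CPM. The concentrate level was 3.50-fold higher than the milk-only level (2.76 to 4.39), the opposite direction to IL17F. A single milk-only cell held 333 of the 434 UMIs, and that cell had 10 IL17F UMIs. The 3 richest cells held 80 of the 91 UMIs with concentrate and 392 of the 434 with milk only. IL17A was found in 13.6% of concentrate lymphocytes (5.17 to 27.4) and 4.82% of milk-only lymphocytes (2.78 to 7.71), with overlapping intervals. Without the lymphocyte richest in IL17A in each library, the levels were 432 CPM with concentrate (323 to 567) and 49.3 CPM with milk only (40.1 to 59.9).

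Most lymphocytes with IL17A had IL17F as well. All 16 IL17A-positive lymphocytes of the milk-only library had IL17F, as did 5 of 6 in the concentrate library and the only one in the hay library. The reverse was uncommon, since 11.4% of the milk-only cells with IL17F had IL17A, against 29.4% of the concentrate cells with IL17F. The milk-only cells with both held a median of 75.5 IL17F UMIs, and the 124 cells with IL17F alone a median of 25. Per IL17A UMI there were 1.41 IL17F UMIs in concentrate lymphocytes and 13.5 in milk-only lymphocytes, and 2.40 and 57.9 without the cell richest in IL17A in each. Among concentrate keratinocytes 1 cell held 15 IL17A UMIs with 0 of IL17F, CD2, IL7R and PTPRC. Of the other family members, IL17C had 0 UMIs in the lymphocytes, keratinocytes and macrophage- or dendritic-like cells of every library.

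**Figure D4:**
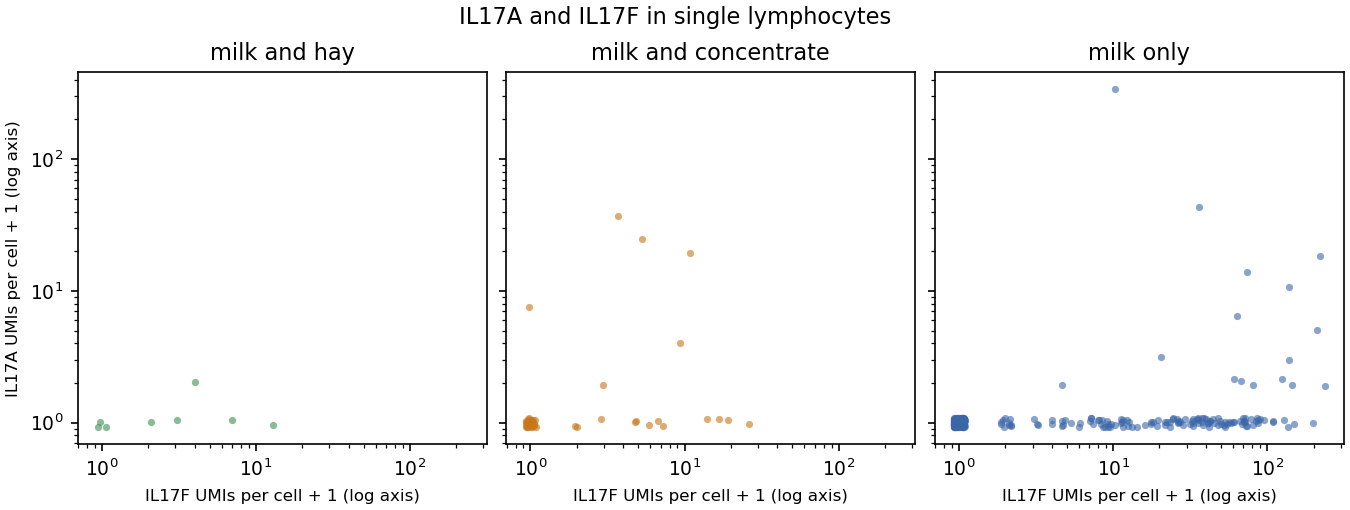
IL17A against IL17F UMIs in each lymphocyte (1 added, log axes) of the hay, concentrate and milk-only libraries, with slight random shifts. All 16 milk-only cells with IL17A lie to the right of the column of cells without IL17F, and 1 of them holds 333 IL17A UMIs.

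To see what else the IL17F-rich cells carried, the 111 milk-only lymphocytes with the highest share of IL17F were set beside the 192 without any. Since IL17F chose these cells, the values are a description. Their median depths were 5116 and 4566.5 UMIs. Of the 1426 genes with at least 50 CPM in the higher group, 13.6% were at least 1.5-fold higher in the IL17F-rich cells and 6.66% at least 1.5-fold lower. IL17A had 433 UMIs in the IL17F-rich cells and 0 in the others, at least 239.7-fold higher when the 0 is set at 3 UMIs. In 1 cell lay 333 of the 433 UMIs, and without that cell the bound was 55.6-fold. IL26, another cytokine of type 17 cells in humans, stood at 79.6 and 1.78 CPM, a ratio of 44.8 (11.8 to 379.7). IL22, a cytokine that acts on epithelial cells, stood at 78.2 and 5.33 CPM, a ratio of 14.7 (6.31 to 41.8). Of the 23 lymphocyte cytokines listed, 6 besides IL17F were measured, 4 of them at least 1.5-fold higher (these 3 and TGFB1) and 1 lower (XCL1). Of all genes, 13.6% were higher and 6.66% lower. IL17A, IL26 and IL22 reached the limit of 50 CPM only in the IL17F-rich cells, and XCL1 only in the others. IFNG, at 2.95 and 46.2 CPM, was also lower but fell just under that limit. AREG, at 16.2 and 33.7 CPM, and TNFSF11, at 0 and 10.7 CPM, were lower and under it too.

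IL1R1, a receptor for interleukin-1, stood at 124 and 16.0 CPM, and CTLA4, an inhibitory receptor, at 612 and 113 CPM. The transcription factor gene IRF4 stood at 64.9 and 17.8 CPM. The further leading genes were SHISA3, with a ratio of 17.02, and the DNA repair gene XPA, with a ratio of 4.34. Of the list of type 17 regulators and surface proteins, 9 of 26 were measured, 8 of them at least 1.5-fold higher and 0 lower, where 13.6% of all genes were higher and 6.66% lower. Their median log2 ratio was 1.64, against 0.07 over all genes. They included IL23R, the receptor for interleukin-23, with a ratio of 3.13 (2.03 to 4.89), RORA with 1.73 (1.30 to 2.30) and STAT3 with 1.61 (1.22 to 2.13), both transcription factor genes. ICOS, a costimulatory receptor, had a ratio of 1.92 (1.47 to 2.52). IL1R1, IRF4, IL23R and the interleukin-2 receptor gene IL2RA reached the limit of 50 CPM only in the IL17F-rich cells. IL18R1, an interleukin-18 receptor gene of the same list, fell under that limit in both groups. It was lower in the IL17F-rich cells, at 10.3 and 32.0 CPM, a ratio of 0.323 (0.121 to 0.736).

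XCL1, a chemokine gene, had 7 UMIs in the IL17F-rich cells and 445 in the others, 38.3-fold lower (18.4 to 95.8). GZMM, a granzyme gene, was 28.6-fold lower (7.70 to 239.6), and CTSW, a cathepsin gene of cytotoxic cells, 7.87-fold lower (5.75 to 11.0). CD79A, a B-cell receptor component, was 10.7-fold lower, and ISG15, an interferon-induced gene, 8.70-fold lower. ENAH, UHRF1 and PRKAR2B were 7.71-, 6.42- and 5.85-fold lower. For ISG15, 58 of the 172 UMIs of all milk-only lymphocytes lay in 1 cell, and for ENAH 25 of 75. The B-cell and plasma-cell marker list summed to 75.5 CPM in milk-only lymphocytes, and its part in the CD79A value was not tested. Of the lymphocyte lineage list, 12 of 40 were measured, 2 of them higher (CD4 and IL7R) and 2 lower (CD69 and CD52). Of all genes, 13.6% were higher and 6.66% lower. The median log2 ratio of the list was 0.06. Members under the limit of 50 CPM were not in these counts. Among them, KLRK1 was lower in the IL17F-rich cells, at 2.95 and 40.8 CPM. The granzyme genes GZMA and GZMK had 0 UMIs there, and 15.1 and 7.10 CPM in the cells without IL17F.

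**Figure D5:**
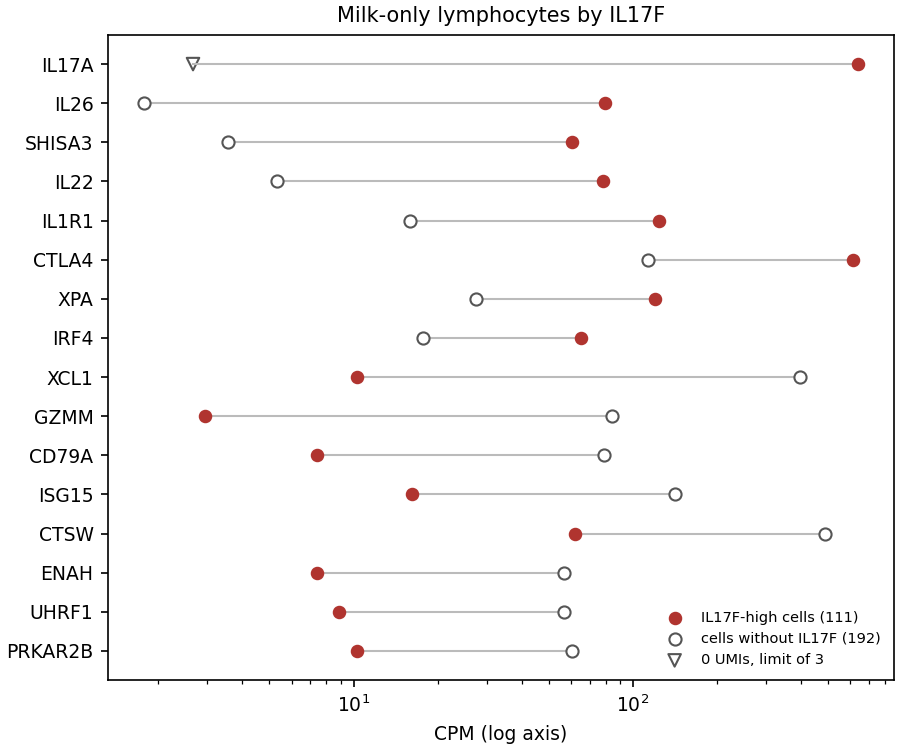
Level in CPM (log axis) of 16 genes, the 8 highest and 8 lowest by ratio between IL17F-rich milk-only lymphocytes (111 cells, filled) and those without IL17F (192 cells, open); the triangle marks the limit of 3 UMIs for a count of 0. IL17A and the cytokines IL26 and IL22 lie to the right in the IL17F-rich cells, and XCL1, GZMM and CTSW to the left.

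IL17F was found in lymphocytes with RNA of CD4 and in others with RNA of TRDC, and the lineage of these cells was not tested. In the milk-only library 67 of the 140 lymphocytes with IL17F had RNA of the helper T-cell gene CD4 and not of TRDC, the constant region of the T-cell receptor delta chain. A further 31 had TRDC and not CD4, 0 had both and 42 had neither. Of the 192 without IL17F the counts were 46, 45, 0 and 101. CD4 was thus found in 47.9% of cells with IL17F and 24.0% of cells without, and TRDC in 22.1% and 23.4%. In the concentrate library 1 of the 17 cells with IL17F had CD4 and 4 had TRDC, against 7 and 1 of the 27 without. Of the 5 hay cells with IL17F, 1 had TRDC and 0 had CD4.

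The concentrate lymphocytes had no part in the choice of these genes and repeated them only partly. IL17A had 84 UMIs in the 17 cells with IL17F and 7 in the 27 without, a ratio of 20.8 (9.67 to 53.4). In 1 cell lay 39 of the 84 UMIs, and the ratio without it was 11.9 (5.31 to 31.2). CTLA4 had a ratio of 6.07 (2.37 to 18.4), but 21 of its 27 UMIs lay in 1 cell, and it was found in 1 of the 17 cells with IL17F and 3 of the 27 without. XPA had 0 UMIs in the cells with IL17F and 8 in the cells without, the other direction from the milk-only library, with an interval of the ratio that reached 1.02. XCL1 had a ratio of 0.653 (0.411 to 1.01) and CTSW of 0.705 (0.339 to 1.38), both with intervals that included 1. ISG15 went the other way from the milk-only library, with a ratio of 3.04 (1.19 to 8.35), and 11 of its 22 UMIs lay in 1 cell. IL22 had 0 UMIs, IL26 had 4 and IL23R had 0 in concentrate lymphocytes, so no difference in these genes could be seen at this depth.

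The genes most like IL17F across cells were other lymphocyte genes. Over the 30 sums of clusters by library with at least 20 cells, ICOS had the highest Pearson correlation of log2(CPM + 1) with IL17F, at 0.98, among 3429 genes. It was followed by LTB at 0.97, the interleukin-2 receptor gene IL2RA at 0.97, and HERC6, CD96, CRTAM, GZMM and PTPRCAP at 0.96 each. IL17A reached 0.90, IL7R 0.78, CD2 0.71 and PTPRC 0.69. The 30 sums share 3 libraries, and the lymphocyte sums of the concentrate and milk-only libraries set most of the contrast, the 8 hay cells being too few for a sum. GZMM shows the limit of this measure, since it was like IL17F across clusters and far lower in the IL17F-rich cells within one.

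The receptor side was measured in keratinocytes, the epithelial cells of these libraries, and a response of these cells to interleukin-17F was not tested. IL17RC, the receptor chain, stood at 26.1 CPM with hay, 25.3 CPM with concentrate and 32.4 CPM with milk only, and IL17RA had no symbol in the files. TRAF6, an adaptor in the pathway, stood at 14.0, 16.2 and 25.3 CPM. NFKBIZ, a nuclear co-activator induced by interleukin-17, stood at 37.7, 23.4 and 102 CPM, and TNFAIP3, a feedback inhibitor, at 4.11, 3.89 and 60.6 CPM. USP25 and MAP3K7, a deubiquitinase and a kinase, stood at 10.8 and 7.71 CPM with milk only. Of the receptor and adaptor list 5 of 18 were measured in the comparison with milk only. With hay 4 were at least 1.5-fold lower and 0 higher, where 21.3% of all genes were lower and 5.1% higher. With concentrate 4 were lower and 0 higher, where 13% of all genes were lower and 9.47% higher.

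Genes known as targets of interleukin-17 in human keratinocytes were mostly highest in the milk-only library. The first 6 named here were chosen by their milk-only level, and a part of interleukin-17F in their values was not tested. S100A8 stood at 31.1 CPM with hay, 101 CPM with concentrate and 1535 CPM with milk only, S100A9 at 25.3, 44.2 and 1194 CPM, and S100A12 at 21.96, 89.4 and 1130 CPM. These 3 encode calcium-binding antimicrobial proteins. KRT17, a stress keratin, stood at 1043, 1114 and 1778 CPM. PI3, a protease inhibitor, stood at 0.0222, 0.878 and 68.8 CPM, and IL36A, a cytokine of the interleukin-1 family, at 1.78, 4.95 and 27.6 CPM. Of the target list 7 of 34 were measured, and 6 of these were lower and 1 higher both with hay and with concentrate, beside the same shares of all genes. The median log2 ratio of the list to milk only was -5.56 for hay and -3.66 for concentrate, against -0.17 and 0.04 over all genes. The exception was MMP9, a matrix metalloproteinase gene, at 13.5, 12.5 and 3.36 CPM, named after its values were seen. PI3 and IL36A reached the limit of 10 CPM only with milk only, and MMP9 only with hay and concentrate. CXCL6 and CSF3 had 0 UMIs in keratinocytes, lymphocytes and macrophage- or dendritic-like cells.

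The keratinocytes compared were not alike in makeup. One differentiated keratinocyte-like cluster had 17 hay cells, 14 concentrate cells and 800 milk-only cells, and a second had 151, 78 and 0. Among the 10 leading genes of the first were PI3, S100A9 and IL36A, at 348, 5440 and 146 CPM over its cells of all libraries. S100A8, S100A12 and KRT17 were not among those 10. IL36A was also a leading gene of the second, at 64.4 CPM. The other keratinocyte clusters were also mostly of 1 library. One had 1 hay cell, 4 concentrate cells and 1030 milk-only cells, with ZFP36, IRF1 and ATF3 among its leading genes, and another had 5, 20 and 1168. The largest hay cluster had 3396, 95 and 8 cells, and the largest concentrate cluster 22, 2399 and 3. The part of all these clusters in the target values, and in those of NFKBIZ and TNFAIP3, was not tested. Among the inducers of type 17 cytokines, IL1B stood at 189 CPM in hay, 1489.6 CPM in concentrate and 9982 CPM in milk-only macrophage- or dendritic-like cells. In the same order, IL1A stood there at 37.8, 104 and 275 CPM, and TGFB1 at 30.3, 57.1 and 75.97 CPM. IL18 was lowest with concentrate, at 144, 109 and 162 CPM. IL23A and IL12B had 0 CPM with hay and concentrate, and 25.7 and 5.38 CPM with milk only. IL6, IL15 and TGFB3 were lower still with milk only. These levels were not compared with those of all genes in this class.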

How the data were processed

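The deposited files held UMI counts per gene and barcode for 3 droplet libraries of rumen epithelium, made by the authors with Cell Ranger. Version 3.1 stands in the submitters' processing notes and version 5.0.0 in the matrices, per the file headers, which leaves the version unsettled. Not given in the sources used here: the aligner settings, genome build, annotation and choice of barcodes. Coordinates are therefore left out. The lowest UMI count of a barcode was 2263 with hay, 1047 with concentrate and 727 with milk only. Groups came from the sample titles.

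A cell needed 500 or more genes and a share of the 13 mitochondrially encoded genes under 20%. No doublet caller was run here, so any doublets remain. Each cell was scaled to 10000 UMIs and logged. From 2000 variable genes, less 5 held out, 30 principal components and 15 neighbours gave 15 Leiden clusters (resolution 0.6), with libraries not integrated. A cluster took the name of the marker list with the highest median fold, given at least 3 markers at 20 CPM and 3 at least 2-fold above other cells, and clusters with no such list counted as keratinocytes. Leading genes fitted the lymphocyte and macrophage or dendritic names. A rebuilt name can differ from the study's own.

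Levels are summed UMIs of a class in CPM, without length correction. A count of 0 was set at 3 counts for bounds. Measured genes reached 10 CPM in keratinocytes of the higher library, or 50 CPM in comparisons within lymphocytes and for likeness. Counts of higher and lower genes use a 1.5-fold limit alone, and the 16 genes named from the IL17F-rich cells also needed an interval excluding 1. The members and gene lists were chosen with earlier results of these data known. Named are IL17F, PTPRC, CD2 and IL7R, up to 6 genes a list by their milk-only level, members at 0 in all libraries, the 8 genes most like IL17F, and the 8 highest and 8 lowest between the third of milk-only lymphocytes richest in IL17F and the third lowest, which became all cells at 0 because of ties. Genes that define a lineage or state an exception are also given and were chosen after their values were seen. Some genes of these lists are not reported here. Only the ratio of 2 levels and its interval were tested on simulated data. Those were Poisson counts of whole libraries, for genes at 50 CPM or more. Clustering, naming of clusters, thinning and the spread were not tested so. IL17F counts in milk-only lymphocytes had a variance 73.9 times their mean, which the simulation did not include. Alternatives changed cell filters, resolution, held-out genes, the definition of lymphocytes, depth, scaling and the cells counted. Tools were Python 3.11.15, scanpy 1.11.5, leidenalg 0.10.2, numpy 2.4.6, scipy 1.17.1, pandas 2.3.3 and matplotlib 3.10.9.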

Additional observations from a re-analysis of the deposited data

Results flagged for a closer look

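IL17F was also counted in barcodes that the cell filters left out, above the limit that a count of 0 allows. Barcodes with under 500 genes held 17 IL17F UMIs in 4 barcodes of the concentrate library and 84 UMIs in 31 barcodes of the milk-only library, and 0 UMIs in the 570 such barcodes of the hay library. Barcodes with at least 500 genes but at or over 20% mitochondrial UMIs held 8 IL17F UMIs in 3 barcodes of the hay library and 16 UMIs in 16 barcodes of the milk-only library, and 0 in the 1565 such barcodes of the concentrate library. The milk-only barcodes with under 500 genes stood at 12.6 CPM, between the levels of lymphocytes and keratinocytes in that library.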

How the results depend on the processing

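No paired analysis was possible because each diet had 1 library. Of 178 values recomputed under alternatives, 146 kept their sign within the counting interval of the reported value, 18 kept it beyond that interval, and 3 whose interval excluded 0 changed sign. A further 11 whose interval included 0 changed sign, all of them spreads relative to CD2 or IL7R, whose direction is therefore not settled there. The values recomputed include shares of positive cells, which cannot change sign. Resolutions of 0.3 and 1.2 gave the same IL17F ratios in lymphocytes as the main setting, so these add no separate check. The bound for IL17A in IL17F-rich lymphocytes moved to 5.80 (log2) without the cell richest in it. With at least 1000 genes per cell, the log2 ratios of IL17F in lymphocytes were -4.14 (hay over milk only), -4.31 (concentrate over milk only) and -0.17 (concentrate over hay, reversed from 0.73), and the milk-only share with IL17F was 49.5%. With lymphocytes defined by UMIs of at least 2 of PTPRC, CD2 and IL7R, these ratios were -3.50, -1.92 and 1.58, the keratinocyte ratios were -4.57, -3.65 and 0.92 (reversed from -3.79), the shares were 13.6%, 19.0% and 35.7%, and the spread relative to IL7R was 2.91 with concentrate and 2.75 with milk only, and relative to CD2 it was 2.39 with milk only (reversed). By construction this definition moves lymphocyte-cluster cells that fail it to the keratinocytes and leaves few CD2 and IL7R UMIs outside it. A minimum of 2263 UMIs per cell left 8, 20 and 314 lymphocytes and gave -1.82 for concentrate over milk only. Thinning to 1000 UMIs gave a milk-only share of 36.1%. A mitochondrial maximum of 10% gave -0.89 for keratinocytes, hay over milk only, and -2.21 for the milk-only spread relative to CD2. Keratinocytes without PTPRC gave 0.48 for the milk-only spread relative to IL7R. Of the alternatives chosen after seeing the data, leaving out the richest lymphocyte gave -2.98 for hay over milk only, leaving out keratinocytes with 10 or more IL17F UMIs gave -3.72, and both immune classes as the source gave -0.39 for the spread relative to CD2. Apart from what construction shows, the cause was not tested. Alternatives with a count of 0 gave no value. With 8 hay and 44 concentrate lymphocytes, the cell number limits each comparison with those libraries.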
